A study of Equus caballus with 32 samples.

Results

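The 10 enzymes described here carry long and medium chain fatty acids into mitochondria, oxidise them and pass the electrons on to the respiratory chain. Their transcripts were measured in venous blood that 32 mares of the Welsh Pony breed gave 30 days after the weaning of foals. The progressive group held 16 mares and the brutal group another 16; the labels give no more on how either weaning was done. Each mare gave 1 single-colour Agilent array of whole blood RNA collected in a stabilising reagent, and each of the 4 slides held 8 arrays, 4 from progressive and 4 from brutal mares. Members were the non-control probes whose gene name in the scanner files is CPT1A, CPT2, ACADM, ACADVL, HADH, HADHA, HADHB, ETFA, ETFB or ETFDH. This rule found 9 of the 10 genes, with 17 probes of 43987 on the array. No probe carries the name HADH. That enzyme is described through 5 probes that carry the gene ID LOC100072956, which the RefSeq gene table names HADH, as an addition to the rule.

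Mitochondrial beta-oxidation shortens a fatty acid in repeated cycles and feeds acetyl-CoA, NADH and reduced flavin to energy metabolism. Long chains enter the mitochondrion as carnitine esters, which CPT1A makes on the outer membrane and CPT2 turns back into acyl-CoA inside. An acyl-CoA dehydrogenase then opens each cycle, with ACADVL acting on very long and ACADM on medium chains. The trifunctional protein of HADHA and HADHB completes the cycle for long chains, and HADH is the dehydrogenase of the penultimate step for shorter ones. Electrons from the dehydrogenases pass to the flavoprotein of ETFA and ETFB and from there, through ETFDH, to ubiquinone. In blood these enzymes act in cells that hold mitochondria, such as lymphocytes, monocytes and platelets, whereas mature red cells have none.

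The probes decide what each value can say, and those on which the results turn are shown in 5′ to 3′ direction as the files give them, with positions on the EquCab1 build named in the file headers. CPT2 had 5 probes of 60 bases, each shifted by 1 base, which share a core of 56 bases shown in capitals, plus a separate probe of 50 bases with no position in the files. The separate probe shares at most 5 bases in a row with the tiled ones. The first sequence is that separate probe, and the next 2 are the outermost tiles, at chr2:4532756-4532815 and chr2:4532752-4532811 on the minus strand.
CPT2 Oligo-78: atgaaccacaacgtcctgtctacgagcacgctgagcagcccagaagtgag
CPT2 A_69_P085065: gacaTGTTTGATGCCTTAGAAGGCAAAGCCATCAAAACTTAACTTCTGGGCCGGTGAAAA
CPT2 A_69_P085061: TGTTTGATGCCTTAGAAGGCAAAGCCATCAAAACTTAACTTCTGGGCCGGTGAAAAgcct

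ETFDH and ACADM each had 2 probes without a shared stretch longer than 7 bases, so that their probes read different parts of a transcript. The ETFDH probes abut at chr2:61151423-61151482 and chr2:61151483-61151542, and the ACADM probes lie at chr5:59881876-59881935 and chr5:59883686-59883745, all on the minus strand.
ETFDH A_69_P088886: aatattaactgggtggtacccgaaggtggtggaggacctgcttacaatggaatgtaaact
ETFDH A_69_P088887: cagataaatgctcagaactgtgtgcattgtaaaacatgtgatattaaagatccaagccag
ACADM A_69_P077486: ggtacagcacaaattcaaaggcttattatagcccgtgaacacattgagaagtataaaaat
ACADM A_69_P077487: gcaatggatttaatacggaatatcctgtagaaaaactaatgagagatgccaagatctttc

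HADH and ETFB had the smallest unadjusted p among the 10 enzymes. The 5 HADH probes overlap in at least 56 bases and count as repeated readings of 1 stretch; the brightest lies at chr2:102834562-102834621 on the minus strand. The single ETFB probe was placed on the unassigned sequence, at chrUn:213185788-213185847 on the minus strand.
HADH A_69_P089762: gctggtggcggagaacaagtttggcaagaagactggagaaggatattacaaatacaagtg
ETFB A_69_P047656: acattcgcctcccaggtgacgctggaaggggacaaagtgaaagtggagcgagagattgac

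Levels are given in log2 units above or below the 75th percentile of the array. Where levels of different probes are set side by side, they compare signal and not amounts of RNA. Differences are progressive minus brutal, with limma's standard error (SE), a 95% interval and two-sided p-values adjusted by Benjamini-Hochberg over all 26368 tested probes. The 75th percentile ran from 339.2 to 646 intensity units over the arrays, and 53 to 65.9% of spots stood well above background. The 2 brightest markers of neutrophils (S100A9, MMP9), monocytes (LYZ, CD14) and T cells (CD6, CD3D) had mean levels of 4.81 to 6.99. Not all blood lists were so bright, with GP9, second of the platelet list, at -0.37. CCR3 and MS4A2 of eosinophils and basophils stood at -0.06 and -2.01, and EPX and GATA2 were not tested. Of 8 liver and muscle markers 4, ALB, APOA1, TTR and MYH7, did not reach the level needed for a test. The other 4 were tested, with FABP3 the brightest (mean level 2.77) and ACTA1 next (-2.63). The array progressive 16 held 851 of the 2483 spots marked as outliers, and results that rest on it are given with and without it. In whole blood, fewer cells of a type and less RNA per cell cannot be told apart.

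None of the 10 enzymes differed between the weaning groups past the threshold. Limma called 0 of 26368 probes (0%) at an adjusted p under 0.05, and no adjusted p was smaller than 0.997. Without adjustment, p was under 0.05 for 715 probes (2.71%) and 239 genes (2.47%). Of the 9 enzymes found by gene name, 7 were lower in progressive mares, with a median difference of -0.06, and with HADH 8 of 10 were lower. Over all 9693 tested genes 57.6% were lower, with a median of -0.02. In this fit the adjusted p of every probe of the 10 enzymes was at least 0.997. The limma 95% intervals of the 10 representative probes lay within -0.42 to 0.32 on the log2 scale.

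**Figure D1:**
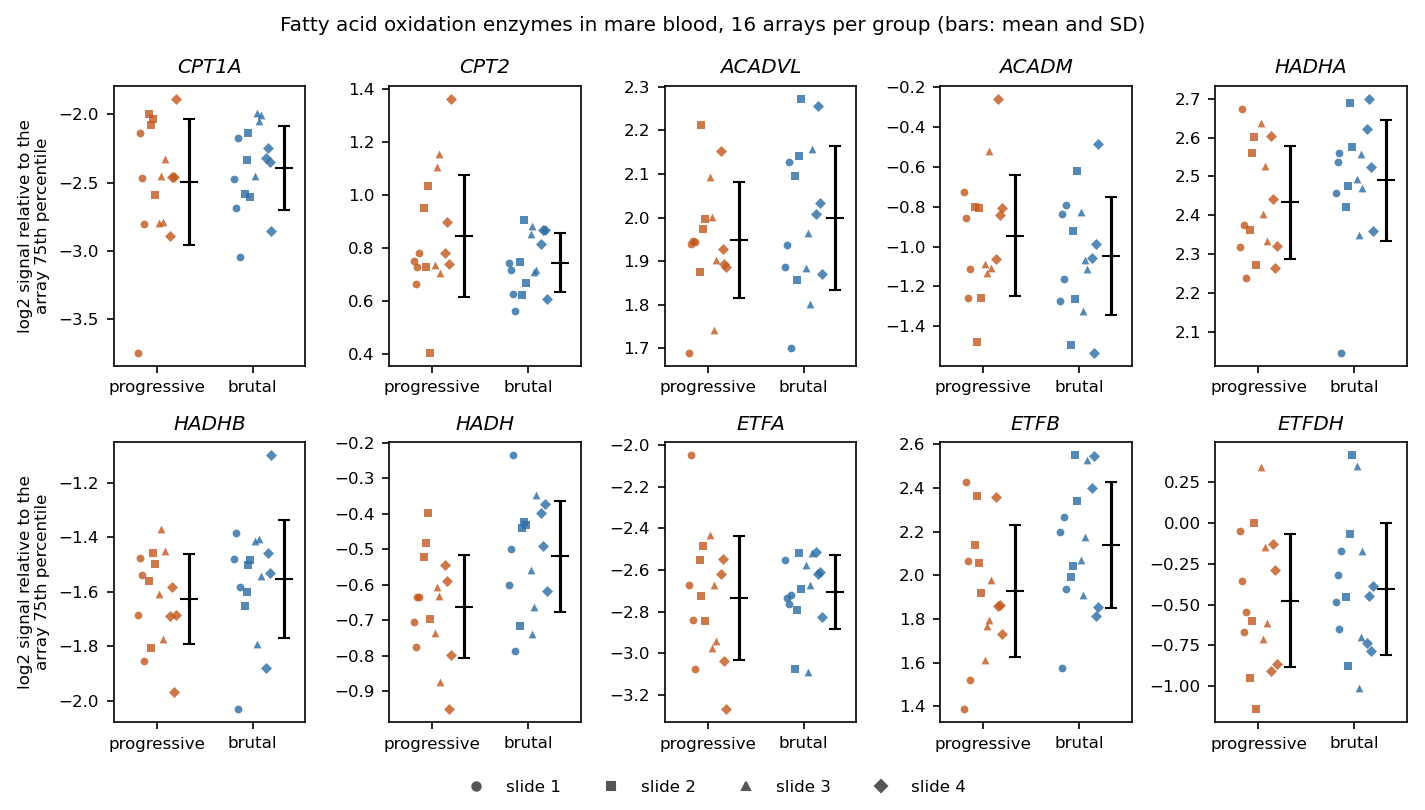
Signal in log2 units from the array's 75th percentile (vertical axes) for the representative probe of each enzyme, in 16 progressive mares (left in each panel, orange) and 16 brutal mares (right, blue). Each point is 1 mare, its shape gives the slide, and black bars show the mean and SD. The groups overlap in every panel, and CPT2 spreads more widely in progressive (SD 0.23) than in brutal mares (SD 0.11).

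At the carnitine step the 2 enzymes lay on opposite sides of 0. CPT1A, the malonyl-CoA sensitive gate of the pathway, ran from -3.75 to -1.89 with a median of -2.46 in progressive mares, and from -3.05 to -1.99 with a median of -2.34 in brutal mares. The brutal range lay inside the progressive one, whose lowest value was that of progressive 1. The next lowest progressive value was -2.89, so the progressive mean rests in part on that 1 mare. No difference without progressive 1 was fitted. The difference was -0.10 (SE 0.13, p = 0.459), with 2 slides lower and 2 higher. Slide 3 alone gave -0.47 and slide 2 alone 0.24, and without slide 3 the difference was 0.02. Without progressive 16, which had the highest CPT1A value, it was -0.14. CPT2 ran from 0.40 to 1.36 with a median of 0.77 in progressive mares, and from 0.56 to 0.90 with a median of 0.73 in brutal mares. Both the highest and the lowest of all 32 values were thus progressive, and the brutal values lay inside the progressive range. The difference was 0.10 (SE 0.067, p = 0.145) and was above 0 on 4 of 4 slides, as it was for each of the 5 tiled probes, whose differences lay between 0.08 and 0.13. Without progressive 16, which had the highest value, the difference was 0.07 (p = 0.283, adjusted p = 1.0 by limma).

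The spread of CPT2 between mares differed more than its mean. Its SD was 0.23 in progressive mares and 0.11 in brutal mares, a ratio of 2.09, which 1.06% of all tested genes equalled or passed, while the median gene had a ratio of 1.04. Over the 5 tiled probes the ratio lay between 1.58 and 2.19. The 3 highest values belonged to progressive 16, progressive 11 and progressive 10. With all arrays the progressive SD was the larger on 3 of the 4 slides. Slide 4 holds progressive 16 (1.36), while its other progressive values ran from 0.74 to 0.90 and its brutal values from 0.61 to 0.87. Without progressive 16 the ratio over all slides was 1.73, which 3.1% of genes equalled or passed. With all arrays ETFA (1.67) and CPT1A (1.51) had the next ratios, and the other 7 enzymes lay between 0.77 and 1.04. Without progressive 16 the ratio was 1.52 for ETFA and 1.46 for CPT1A. The CPT1A ratio rests in part on progressive 1, at -3.75 against -2.89 for the next lowest progressive mare. Without progressive 1 the SD of CPT1A over both groups together was 0.311, against 0.387 with it. No ratio without that mare was computed. These ratios are descriptions and were not tested.

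The acyl-CoA dehydrogenases also stood on opposite sides. ACADVL ran from 1.69 to 2.21 with a median of 1.94 in progressive mares, and from 1.70 to 2.27 with a median of 1.99 in brutal mares. The ranges were nearly the same, and the difference was -0.05 (SE 0.058, p = 0.389), below 0 on 4 of 4 slides. ACADM ran from -1.48 to -0.26 with a median of -0.96 in progressive mares, and from -1.53 to -0.49 with a median of -1.06 in brutal mares. The highest value was that of progressive 14, and 8 of 16 progressive mares lay above the brutal median. Its difference was 0.10 (SE 0.10, p = 0.334), above 0 on 3 of 4 slides, and its second probe gave 0.09.

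Both subunits of the trifunctional protein differed by less than 0.1. HADHA, which carries the hydratase and long chain dehydrogenase activities, ran from 2.24 to 2.67 with a median of 2.39 in progressive mares, and from 2.05 to 2.70 with a median of 2.51 in brutal mares. The lowest value was that of brutal 4, and the brutal range enclosed the progressive one. The difference was -0.06 (SE 0.059, p = 0.343), lower on 2 slides and higher on 2. HADHB, the thiolase subunit, ran from -1.97 to -1.37 with a median of -1.60 in progressive mares, and from -2.03 to -1.10 with a median of -1.52 in brutal mares. Here too the brutal range was the wider. The difference was -0.07 (SE 0.071, p = 0.31 by limma) and below 0 on 4 of 4 slides. Slide 4 alone gave -0.24, and the other slides only -0.022 to -0.013. Another probe that an accession ties to HADHB gave -0.05 and lay above 0 on slide 1 (0.11).

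HADH, read by its brightest probe, had the smallest unadjusted p of the 10 enzymes. It ran from -0.95 to -0.40 with a median of -0.64 in progressive mares, and from -0.79 to -0.23 with a median of -0.50 in brutal mares. The ranges overlapped, although 14 of 16 progressive mares lay below the brutal median. The difference was -0.14 (SE 0.059, 95% interval -0.26 to -0.022, p = 0.0217, adjusted p = 0.997 by limma), a ratio of 0.907, and it was below 0 on 4 of 4 slides. The other 4 overlapping probes gave -0.12 to -0.08, with unadjusted p between 0.0786 and 0.207, and each was below 0 on 3 of 4 slides. As the mean of its probes HADH differed by -0.12 (limma p = 0.064), and ETFB then had the smaller p (0.0504).

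Among the electron carriers ETFB, the beta subunit of the flavoprotein, had the largest difference of the 10 enzymes. It ran from 1.39 to 2.43 with a median of 1.89 in progressive mares, and from 1.57 to 2.55 with a median of 2.12 in brutal mares. The ranges overlapped, with 12 of 16 progressive mares below the brutal median. The difference was -0.21 (SE 0.10, 95% interval -0.42 to 0.0012, p = 0.0513, adjusted p = 0.997 by limma), a ratio of 0.865, below 0 on 4 of 4 slides. ETFA, the alpha subunit, ran from -3.27 to -2.05 with a median of -2.70 in progressive mares, and from -3.09 to -2.51 with a median of -2.68 in brutal mares. Progressive mares held both the highest and the lowest ETFA value, and 8 of 16 lay on each side of the brutal median. The difference was -0.03 (SE 0.088, p = 0.739), and without progressive 16, which had the lowest value, it was 0.0061. The second ETFA probe stood well above background on 9 arrays of each group and gave 0.05. ETFDH, the ubiquinone oxidoreductase, ran from -1.14 to 0.34 with a median of -0.57 in progressive mares, and from -1.01 to 0.42 with a median of -0.45 in brutal mares. The groups covered the same range, and the difference was -0.07 (SE 0.14, p = 0.616), with its adjoining probe at 0.04; without progressive 16 it was -0.05. Slide 2 alone gave -0.43 and the other slides 0.0026 to 0.10.

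**Figure D2:**
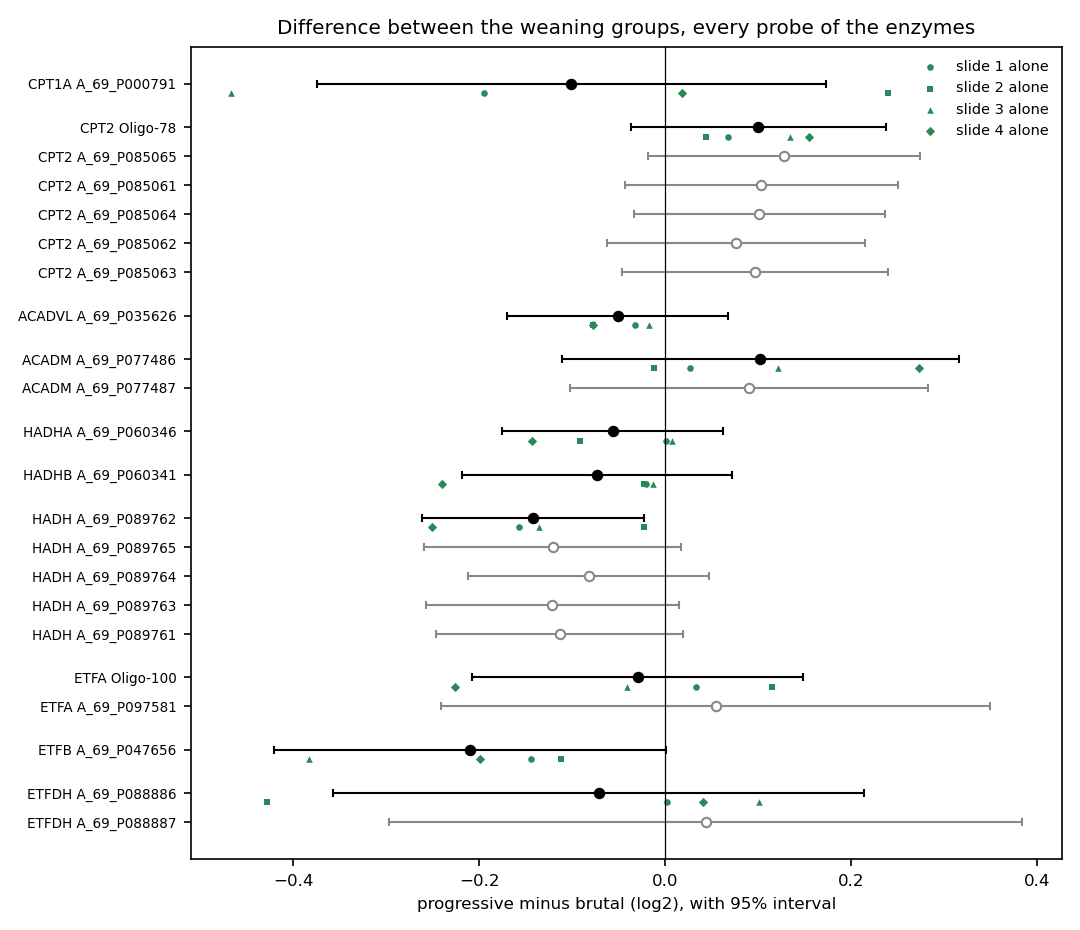
Progressive minus brutal difference on the log2 scale (horizontal axis) for every probe of the 10 enzymes, with limma's 95% interval. Filled black points are the representative probes, open grey points the further probes, and green symbols the difference on each slide alone. CPT2 lay above 0 with all 6 probes, and the representative probes of ACADVL, HADHB, HADH and ETFB lay below 0 on all 4 slides. For HADHB this was -0.24 on slide 4 and only -0.022 to -0.013 on the others.

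Most tested markers of platelets, red cells and neutrophils were lower in progressive mares, as were 57.6% of all tested genes. No marker passed the threshold. All 7 tested platelet markers of 10 listed were lower in progressive mares (median difference -0.45); their summed level ran from 11.04 to 38.68 times the 75th percentile in progressive mares and from 20.09 to 44.95 in brutal mares. PPBP was not tested, and PF4 and TUBB1 were not found on the array by name. Of the erythroid markers 5 of 10 were tested and 4 were lower (median -0.47), with summed levels from 18.4 to 713 in progressive and from 18.8 to 990 in brutal mares. SLC4A1, EPB42 and CA1 were not tested. Each of these 2 sums is mostly the signal of 1 marker. For platelets that was GNG11 (mean level 4.46, next GP9 at -0.37), and for red cells HBB (6.39, next ALAS2 at 1.4). All 11 tested neutrophil markers of 12 were lower (median -0.31), with summed levels from 74.7 to 307.7 in progressive and from 74.1 to 267.5 in brutal mares. Other types were more even, with 4 of 6 monocyte markers lower (median -0.05), 4 of 11 T cell markers (median 0.0099), 2 of 7 B cell markers (median 0.03) and 5 of 8 markers of NK and cytotoxic cells (median -0.11). With the neutrophil, T cell, erythroid and platelet scores as covariates the difference was -0.05 for ETFB and -0.07 for HADH, and 4 of 9 enzymes were lower instead of 7. CPT1A (0.11), HADHA (0.021) and ACADVL (0.0080) then lay above 0, and CPT2 (0.18, p = 0.0205, adjusted p = 1.0 by limma) and ETFDH (-0.14) lay farther from 0 than without the covariates. Whether blood composition has a part in the differences of the enzymes was not tested. The array's 75th percentile also averaged 516 ± 86.3 intensity units in progressive mares and 482 ± 75.5 in brutal mares (SD, n = 16 each). Under quantile normalisation, which replaces that percentile, the differences were -0.20 for ETFB and -0.14 for HADH. Both enzymes still correlated with the percentile across mares there (Pearson r = -0.50 for ETFB and -0.624 for HADH). This change of scaling thus cannot separate the differences from the percentile, whose part in them was not tested.

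The other genes of fatty acid oxidation were split between both directions about as all tested genes were. Of 78 listed genes 59 were tested, and 36 of them were lower in progressive mares with a median of -0.03, against 57.6% and -0.02 over all tested genes. None passed the threshold, and 2 reached an unadjusted p under 0.05. HIBCH, a hydrolase of valine breakdown, averaged -4.97 ± 0.49 in progressive mares and -5.49 ± 0.48 in brutal mares (SD, n = 16 each). It ran from -5.61 to -3.66 in progressive and from -6.54 to -4.60 in brutal mares, so the groups overlapped. Its difference was 0.52 (SE 0.17, p = 0.00369 by limma), above 0 on 4 of 4 slides. HIBCH stood well above background on only 15 of 32 arrays, and so met the filter through 1 group only. Its p depends on that filter and is given as a description. SLC25A32, a mitochondrial carrier linked to flavin supply, averaged -4.00 ± 0.40 in progressive mares and -4.28 ± 0.33 in brutal mares (SD, n = 16 each). The difference was 0.28 (SE 0.13, p = 0.0359 by limma), with 3 of 4 slides higher. SLC25A32 stood well above background on 28 of 32 arrays.

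By role, 4 of 10 tested genes of entry and activation were lower (median 0.03), among which CPT1B, the muscle form of CPT1, differed by 0.18 and ACSM1, a medium chain acyl-CoA synthetase, by 0.16. Among further acyl-CoA dehydrogenases 5 of 8 were lower (median -0.05). ACAD8, which acts on a valine intermediate, differed by -0.33 (p = 0.0625) but stood well above background on 12 arrays. Like HIBCH, it thus met the filter through 1 group only, and its p carries the same limit. ACADSB, for short branched chains, differed by -0.12. Of the hydratases, isomerases and thiolases 6 of 9 were lower (median -0.06), with ECI2, an enoyl-CoA isomerase, at -0.16. Electron transfer partners had 3 of 5 lower (median -0.0063), with COQ4 of ubiquinone synthesis at -0.07. Peroxisomal oxidation had 6 of 9 lower (median -0.02), and ABCD3, a transporter of the peroxisomal membrane, differed by 0.14.

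Regulators had 10 of 14 lower (median -0.06). The coactivators PPARGC1A and PPARGC1B differed by -0.24 and -0.19, STK11, the kinase upstream of AMPK, by -0.16 (p = 0.0511), and SIRT5, a mitochondrial deacylase, by 0.13. PPARGC1A stood well above background on 13 of 32 arrays, and so it also met the filter through 1 group only. Of the genes that respond to PPAR, 4 of 10 were tested, and 2 were lower (median 0.0094). UCP2, a mitochondrial carrier, differed by -0.22 and was lower on 4 of 4 slides, and FABP3, a fatty acid binding protein, by 0.11. PDK4 and ANGPTL4, well known targets of PPAR, were not among those tested.

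**Figure D3:**
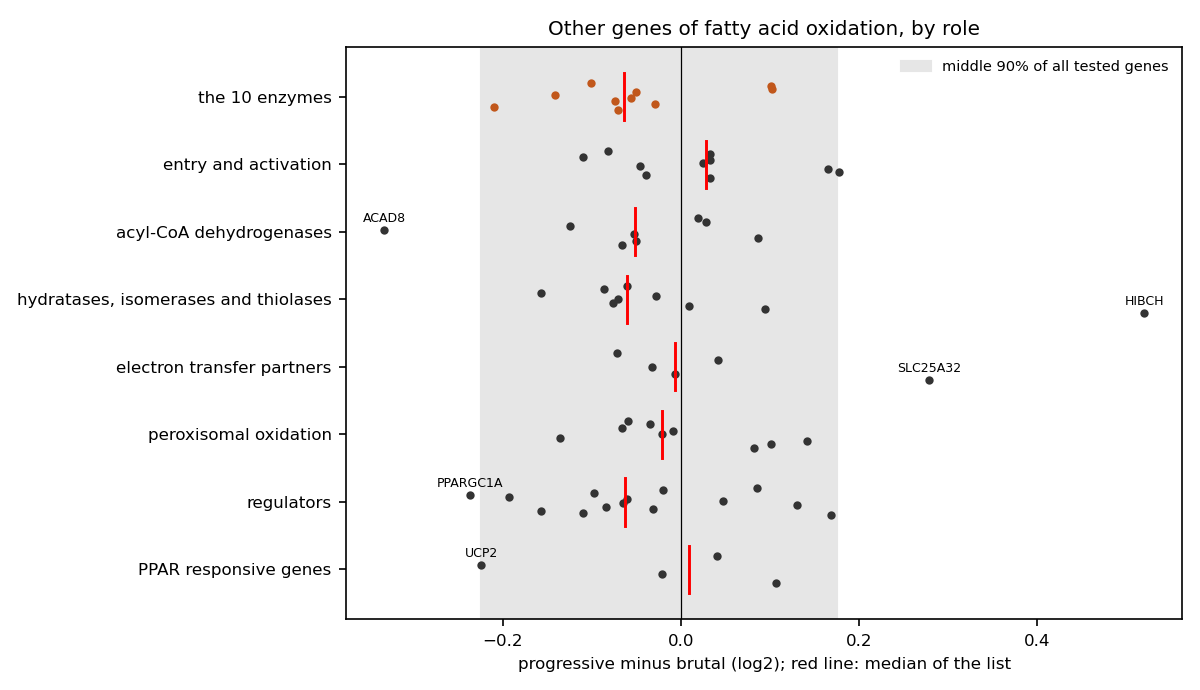
Progressive minus brutal difference on the log2 scale (horizontal axis) for the 10 enzymes (orange) and for the other tested genes of fatty acid oxidation by role (dark points), with the median of each list as a red line. The grey band covers the middle 90% of all tested genes, from -0.22 to 0.18; 6 of the 59 pathway genes lie outside it.

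The enzymes differed in how much they varied from mare to mare, whatever the weaning. The SD over 32 mares was 0.15 for ACADVL and for HADHA, and only 4.34% and 4.62% of tested genes varied less. HADH (SD 0.165), CPT2 (0.184) and HADHB (0.194) also lay in the quieter part, with 7.4%, 12.6% and 15.5% of genes below them. ETFA (0.242) lay somewhat under the median gene at 0.30, and ACADM (0.299) and ETFB (0.309) lay at it. CPT1A (0.387) and ETFDH (0.403) varied most, with 70.3% and 72.8% of genes below them. From its lowest to its highest mare ETFDH spanned a 2.95-fold range, against 1.57-fold for HADHA. The spread of CPT1A rested in part on progressive 1. Its range was 3.63-fold with that mare and 2.23-fold without it, where its SD was 0.311, with 53.9% of genes below it, beside 0.299 for ACADM and 0.29 for ETFB.

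Separate probes of a gene served as a check of these differences between mares. Correlations across the 32 mares were computed as a family of 151: 45 pairs of enzymes, 80 of an enzyme with a cell type score, 20 of an enzyme with an array measure and 6 of probes. A permutation test with 100000 resamples gave two-sided p-values, adjusted by Benjamini-Hochberg over the family. The 2 abutting ETFDH probes followed each other with r = 0.935 (rho = 0.97), and r was 0.921 without the 2 farthest mares and 0.931 to 0.976 within slides. The CPT2 probes that share no sequence gave r = 0.883 (rho = 0.756), with 0.861 without progressive 16 and 0.393 to 0.979 within slides. The ACADM probes gave r = 0.818 (rho = 0.755), with 0.815 without the 2 farthest and 0.484 to 0.969 within slides. For these 3 pairs the permutation p was 1e-05, the smallest that the resamples can give, and the adjusted p 0.000503. The 2 ETFA probes gave r = 0.43 (rho = 0.401, adjusted permutation p = 0.0585), and the dimmer one stood well above background on 9 arrays of each group.

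**Figure D4:**
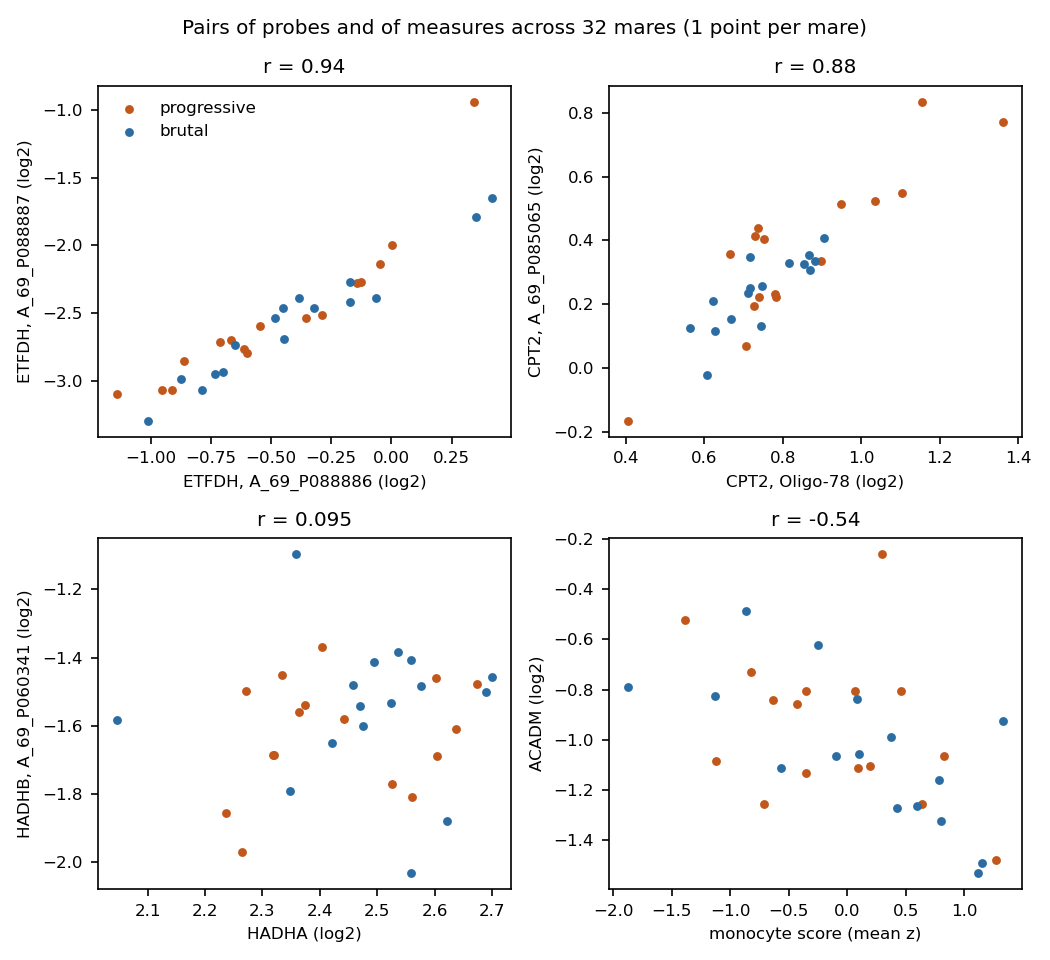
Each point is 1 of 32 mares, orange for progressive and blue for brutal, on log2 axes except for the monocyte score (mean z value). The 2 probes of ETFDH (r = 0.94) and of CPT2 (r = 0.88) follow a line, and ACADM falls with the monocyte score (r = -0.54). HADHA shows no line with the HADHB probe plotted (r = 0.095). With the further, brighter HADHB probe, not plotted, r was 0.44.

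HADHA and HADHB encode subunits of 1 complex and are neighbours in the RefSeq gene table, with 10 bases between them. Their probes lie on opposite strands of chromosome 15 in EquCab1, at chr15:66547602-66547661 on the plus strand for HADHA and at chr15:66469697-66470132 on the minus strand for HADHB. Across mares the 2 did not correlate past the threshold (r = 0.095, rho = 0.141, permutation p = 0.606, adjusted p = 0.803), with -0.022 to 0.14 within slides. The further HADHB probe, tied to the gene by accession, followed the first with r = 0.638 (rho = 0.673, adjusted permutation p = 0.00242) and HADHA with r = 0.441 (rho = 0.475, adjusted permutation p = 0.0459). Between that probe and HADHA, r was 0.429 without progressive 16 (adjusted permutation p = 0.0682) and 0.283 under quantile normalisation (adjusted permutation p = 0.304). The pair's r therefore depended on which HADHB probe was read and on the scaling. The further probe was the brighter (mean 0.89 in progressive and 0.94 in brutal mares, against -1.63 and -1.55). It did not stand for HADHB because it lacks that gene name.

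Of the 45 pairs of enzymes 32 had r above 0, and 10 passed the threshold, 9 of them positive. For comparison, between 42.4% and 65.5% of the 7595 genes well above background on all arrays had r above 0 with a given enzyme. The share of those genes that would pass the threshold was not computed, so 10 of 45 has no such comparison. The highest was HADHA with ETFA (r = 0.617, rho = 0.659, adjusted permutation p = 0.00554), which was 0.685 without the 2 farthest mares and 0.529 to 0.859 within slides. CPT1A with ETFB gave r = 0.545 (rho = 0.452, adjusted permutation p = 0.00915), with 0.431 without the 2 farthest and -0.151 to 0.817 within slides. The negative pair was ACADM with ACADVL, the medium and very long chain dehydrogenases (r = -0.502, rho = -0.563, adjusted permutation p = 0.0213), with -0.528 without the 2 farthest and -0.815 to -0.247 within slides. These 3 pairs also passed under quantile normalisation (r = 0.513, 0.547 and -0.533), and the last 2 in the deposited series table. The other 7 called pairs, all among ACADVL, HADH, HADHA, ETFA and ETFB, did not pass under quantile normalisation, where r lay between 0.316 for HADHA with ETFB, against 0.551, and 0.423 for ACADVL with ETFB, against 0.575. For ETFA with ETFB r was 0.412 there, close to its 0.452. Without progressive 16, 8 of the 10 pairs passed, and HADH with ETFB (r = 0.436) and ETFA with ETFB (r = 0.423) did not. Those 5 enzymes were also the ones that correlated past the threshold with the array's 75th percentile, the divisor of the values, from r = -0.629 for ETFA to -0.557 for ACADVL. Under quantile normalisation, where it is no longer the divisor, ETFA (r = -0.653), HADH (r = -0.624) and ETFB (r = -0.50) still passed (adjusted permutation p = 0.00211, 0.00403 and 0.0375), and ACADVL (r = -0.393) and HADHA (r = -0.367) did not. What part that percentile has in the 7 pairs was not tested beyond this change of scaling.

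**Figure D5:**
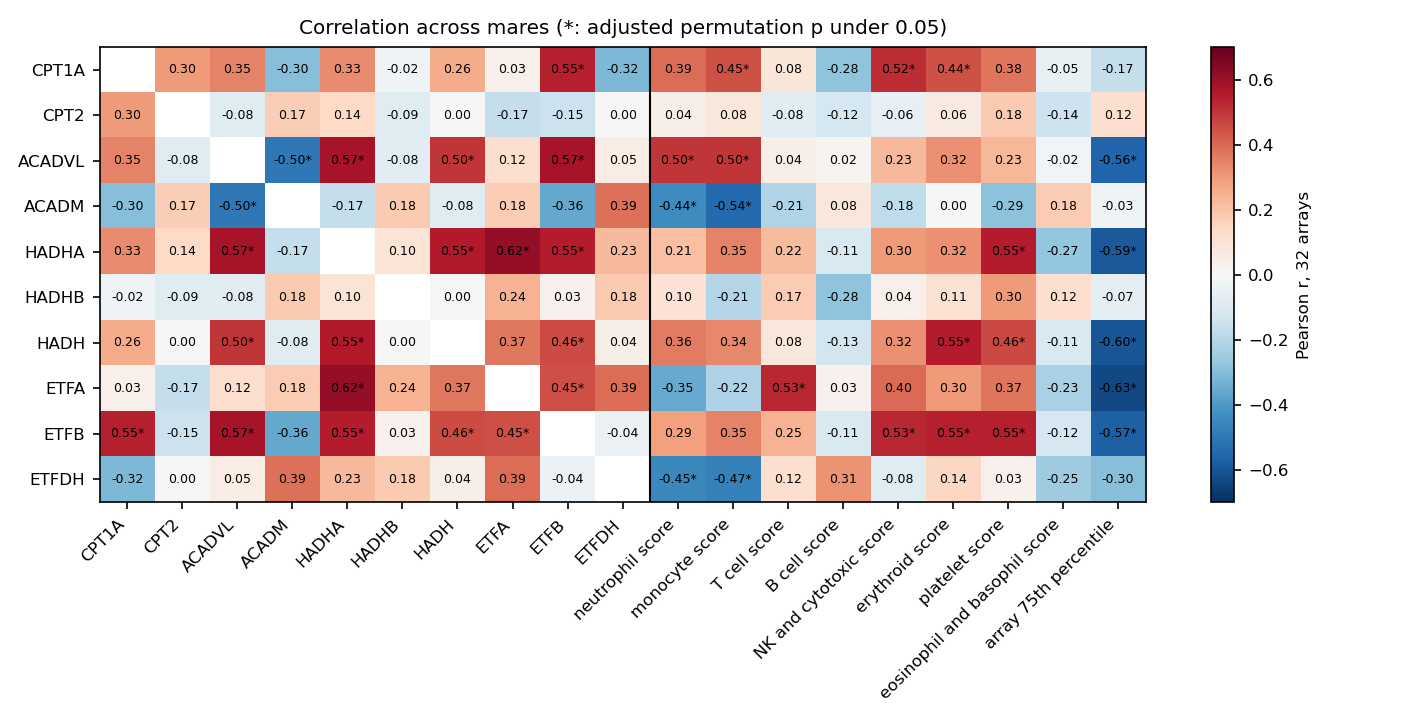
Pearson r over 32 arrays between each enzyme (rows) and the other enzymes, the 8 blood cell type scores and the array's 75th percentile (columns), with red for positive and blue for negative r and a star where the adjusted permutation p is under 0.05. ACADVL, HADH, HADHA, ETFA and ETFB hold most of the starred positive pairs, though not ACADVL with ETFA (r = 0.12) or HADH with ETFA (r = 0.37), and all 5 are negative in the column at the right, while ACADM and ETFDH are negative with the neutrophil and monocyte scores.

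Cell type scores, the mean z value of a type's tested markers, split the enzymes. ACADM was lower in mares with a higher monocyte score (r = -0.544, rho = -0.576, adjusted permutation p = 0.0102), and this held in sign on each slide (-0.792 to -0.501), under quantile normalisation (r = -0.528) and without the 2 farthest mares (r = -0.493). ETFDH was also lower with the monocyte score (r = -0.471, rho = -0.467, adjusted permutation p = 0.0348), but within slides r ran from -0.869 to -0.0083. ETFB was higher with the platelet score (r = 0.545, rho = 0.609, adjusted permutation p = 0.00915; 0.44 to 0.805 within slides) and with the erythroid score (r = 0.546, rho = 0.512, adjusted permutation p = 0.0101; 0.319 to 0.921 within slides). HADH was higher with the erythroid score too (r = 0.55, rho = 0.529, adjusted permutation p = 0.0101; 0.488 to 0.856 within slides). Without the 2 farthest mares these 3 relations were 0.489, 0.451 and 0.468. In all, 16 of 80 enzyme and score relations passed, of which 7 also passed under quantile normalisation and 13 without progressive 16. The same count was not made for other genes, so it is not shown to be particular to these enzymes. CPT2 and HADHB passed with no score.

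For each enzyme the 3 genes with the most similar pattern were sought among 7595 genes well above background on all 32 arrays, by Pearson r of log2 values, as a description. HADHA was closest to NSF (r = 0.876), UQCRC1 (0.848) and NDUFS7 (0.839), of which UQCRC1 and NDUFS7 are subunits of respiratory chain complexes. ETFA was closest to SNRPD3 (0.868), POLR2H (0.847) and LOC100061787 (0.846), and ETFB to VAMP8 (0.854), RPS9 (0.816) and AP1S1 (0.803). ACADM was closest to NUDCD2 (0.824), UBA3 (0.81) and FKBP3 (0.808), and ACADVL to SIRT2 (0.804), ABHD12 (0.78) and GPAA1 (0.76). HADH was closest to NPC2 (0.751), S100A4 (0.732) and RAB11A (0.728). ETFDH was closest to OSGEP (0.721), MTRES1 (0.714) and TEX9 (0.691), and CPT1A to PITPNA (0.667), GLMP (0.648) and GAPDH (0.648). HADHB was closest to its own accession matched probe (0.638), then to UBE2G1 (0.582) and ZNF132 (0.573). CPT2 was closest to BTBD1 (0.611), MLN (0.557) and IRS2 (0.551), but without progressive 16 these were 0.298, 0.247 and 0.218. No enzyme had another of the 10 among its 3 closest genes.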

How the data were processed

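Whole blood RNA (200 ng per mare) was labelled with Cy3, per the labels. Intensity values of single spots come from the deposited scanner files, background subtracted and detrended by Agilent Feature Extraction 10.10.1.1, per the file headers. The deposited series table holds log2 values of unstated normalisation with array medians of 8.397 to 8.399, and served as an alternative. Of the 62976 spots of an array 1319 controls were left out, as were spots marked as outliers, 2483 over all 32 arrays. Processed signals were divided by the array's 75th percentile, converted to log2 and, for repeated spots, averaged per probe. Probes well above background on at least 8 of 16 arrays of a group were tested (26368). The brightest tested probe stood for its gene, leaving out the HADHB probe tied to it only by accession. Limma 3.58.1 (R 4.3.3, lmFit and eBayes, group only) was checked on simulated data; correlations used scipy 1.17.1 with numpy 2.4.6 and pandas 2.3.3 (Python 3.11.15), and plots matplotlib 3.10.9.

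Named genes were all members, per role list the 2 smallest p and the 2 largest differences, and per member the 3 most correlated genes. Some genes that this rule takes are not reported here. Members and lists were chosen with earlier results of these data known; the array measures and the probe pairs were added to the correlations after values were seen. Each mare is 1 array, so precision is limited by 16 arrays per group. Alternatives were other scalings, filters, slide and row terms, single slides left out, array weights, eBayes options, composition covariates, the mean of a gene's probes, and the array progressive 16 left out.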

Additional observations from a re-analysis of the deposited data

How the results depend on the processing

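No setting called any probe: limma gave 0 in each of 17, and the lowest adjusted p of any of the 10 enzymes was 0.88, with array weights. The count at an unadjusted p under 0.05 was 715, against 414 without slide 3, 406 without slide 4 and 1324 with array weights. The enzymes lower in progressive mares numbered 7 of 9, and 4 with composition covariates. CPT2 and ACADM stayed above 0, and HADH, HADHB and ETFB below 0, in every setting run, with CPT2 between 0.07 and 0.18, ACADM between 0.04 (composition covariates) and 0.14, HADH between -0.18 and -0.07, HADHB between -0.09 and -0.02 (without slide 4) and ETFB between -0.24 and -0.05. The spread of CPT1A without progressive 1 was added after seeing the data. Signs changed for ETFDH without slide 2 (0.048), CPT1A without slide 3 (0.021), ETFA without slide 4 (0.036) and without progressive 16 (0.0061), ETFA as the mean of its probes (0.013), and CPT1A (0.11), ACADVL (0.0080) and HADHA (0.021) with composition covariates. The cause was not tested. Called correlations numbered 36 of 151, of which 30 were also called without progressive 16, 17 under quantile normalisation and 15 in the deposited series table. The mean of a gene's probes gives no count of probes. No paired analysis was possible because the labels pair no progressive mare with a brutal one. Probes near background, such as those of HIBCH, ACAD8 and PPARGC1A and the second one of ETFA, are measured less precisely than the representative probes of the 10 enzymes, all well above background on all 32 arrays.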
